A study of Rattus norvegicus with 16 samples.

Results

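Spag6l, LOC100912028 and Efcab1 lie at one end of rat chromosome 11. They were followed as rows of a read count table over 16 RNA-seq libraries, and are 3 of its 33294 gene rows. They were chosen because an earlier look at the same table showed each of them much higher in offspring exposed to fentanyl than in offspring exposed to saline, so their fold changes and levels by exposure are given below as a description, without a test. Of the 33294 rows, 17856 passed the filter on low counts, the 3 genes among them. Each passed with counts in all 16 libraries.

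The libraries were made from poly(A) RNA of tissue labelled central amygdala, collected from adult rats 1 day after a final session that the labels abbreviate as IVSA. Exposure took place around birth and was to fentanyl, an opioid, or to saline as the control. There were 6 fentanyl males, 2 fentanyl females, 6 saline males and 2 saline females, and the design text names no group without the sessions. The labels give no strain, age in days, dose or litter, so every p-value below measures the spread between these libraries, and littermates could not be taken into account. Total counts ran from 12879701 to 22426428 per library. All of 10 neuronal genes associated with the central amygdala passed the filter, though Gal was at 0 in at least 1 library. Their summed level was 2320 to 6070 CPM in the fentanyl libraries and 1140 to 4630 CPM in the saline libraries. Most of it came from Penk and Ppp1r1b, which striatal neurons express as well. Of the 10, 6 had a log2 fold change of fentanyl over saline above 0 and 4 below, with a median of 0.04. CPM is the count scaled to a fixed library size, after adjustment of the library sizes, and does not correct for gene length.

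Motile cilia beat by means of a ring of outer microtubule doublets around a central pair. SPAG6 proteins, which are built of armadillo repeats, belong to the projections of the central pair. Mice that lack a gene of this family have defects of ciliary beating, hydrocephalus and male infertility. Efcab1, now named Clxn, encodes calaxin, a calcium-binding protein with EF hands that is tied to the outer dynein arms, the motors on the doublets. In the brain, motile cilia are carried by ependymal cells that line the ventricles. LOC100912028 is annotated as protein coding in the RefSeq gene table, with a provisional symbol, and no role is given for it here.

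The RefSeq gene table of assembly GRCr8, which is newer than the build used for counting, gives the order of these genes. LOC100912028 follows Spag6l after 2 other entries, and Efcab1 follows LOC100912028 after 21 more, so that 24 entries in all separate Spag6l from Efcab1. Efcab1 is thus not a close neighbour of Spag6l and LOC100912028. Of the 1328 entries of chromosome 11, 1 lies beyond Efcab1. A second gene of the family, Spag6, lies on chromosome 17. The gene table lists each of the symbols Spag6 and Spag6l as a synonym of the other gene, and how the annotation used for counting assigned them cannot be read from the count table. Whether reads were shared or lost between the 2 copies was not tested.

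The 250 bases before the annotated starts of Spag6l, LOC100912028 and Spag6 are shown because the first pair differed together by exposure and the family member on chromosome 17 did not pass the test of exposure. They come from RefSeq promoter sequences of GRCr8, at chr11:97677590-97677839, chr11:97826947-97827196 and chr17:86261825-86262074, all on the + strand. Capitals mark matches on either strand to GTTGCC, a half-site of RFX factors, which drive ciliary genes, to GTAAACA, a forkhead site such as FOXJ1 binds, and to TGACGTCA, the cAMP response element. The motifs were chosen after the sequences had been seen.
Spag6l: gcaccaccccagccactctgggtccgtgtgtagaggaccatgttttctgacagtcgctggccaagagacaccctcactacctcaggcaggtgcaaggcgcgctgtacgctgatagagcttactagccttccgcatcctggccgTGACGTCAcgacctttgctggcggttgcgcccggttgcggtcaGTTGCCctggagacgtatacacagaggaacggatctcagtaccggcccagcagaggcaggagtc
LOC100912028: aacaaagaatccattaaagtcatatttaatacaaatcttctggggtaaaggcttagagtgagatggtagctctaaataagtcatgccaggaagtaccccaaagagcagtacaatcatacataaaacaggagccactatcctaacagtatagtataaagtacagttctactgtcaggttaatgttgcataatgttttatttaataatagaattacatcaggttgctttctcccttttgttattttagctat
Spag6: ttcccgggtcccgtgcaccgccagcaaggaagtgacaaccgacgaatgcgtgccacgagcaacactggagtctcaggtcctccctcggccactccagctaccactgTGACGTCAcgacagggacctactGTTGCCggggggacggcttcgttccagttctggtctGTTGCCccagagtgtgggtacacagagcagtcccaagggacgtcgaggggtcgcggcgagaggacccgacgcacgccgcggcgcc

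The Spag6l sequence held 1 RFX half-site, 64 bases before the start, and 1 cAMP response element, 107 bases before it. The Spag6 sequence held 2 RFX half-sites, at 121 and 85 bases, and 1 cAMP response element at 144 bases. The LOC100912028 sequence held none of these letters. It had 33.2% G and C, against 60.8% for Spag6l and a median of 51.2% over all promoters. The forkhead letters occurred in none of the 3 sequences. Over the 33469 promoters of the table, the RFX half-site was present in 9.89%, the forkhead site in 3.21% and the cAMP response element in 1.59% of windows of this length. These matches are letters in a window and were not tested as binding sites. The promoter table has no entry under Clxn or Efcab1.

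Spag6l, the central pair gene, had the largest fold change of the 3. It had 24.2, 30.8, 32.4, 20.1, 13.9 and 14.3 CPM in the 6 fentanyl males and 45.5 and 16.2 CPM in the 2 fentanyl females. It had 2.33, 0.811, 3.90, 1.87, 1.14 and 1.5 CPM in the 6 saline males and 1.56 and 1.19 CPM in the 2 saline females. Every fentanyl library was above every saline library, and fentanyl male replicate 5, the lowest of its exposure, stood 3.56-fold above saline male replicate 3, the highest of the other. The means were 24.7 ± 11 CPM in fentanyl and 1.79 ± 0.973 CPM in saline libraries (SD, n = 8 each), from 3234 counts in fentanyl and 262 in saline libraries. The log2 fold change with sex as a term was 3.75 ± 0.33 (SE). In bulk tissue, fewer cells that express a gene and less RNA per cell cannot be told apart.

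LOC100912028 followed the same order of the exposures. Its level was 8.99, 4.96, 13.5, 10.2, 4.32 and 3.02 CPM in fentanyl males and 18.3 and 3.92 CPM in fentanyl females. In saline males it was 0.755, 0.290, 1.59, 0.562, 0.381 and 0.518 CPM, and in saline females 0.562 and 0.565 CPM. The groups did not overlap, and the lowest fentanyl library, fentanyl male replicate 6, was 1.90-fold above the highest saline library, again saline male replicate 3. The means were 8.41 ± 5.43 CPM in fentanyl and 0.653 ± 0.404 CPM in saline libraries (SD, n = 8 each), and the log2 fold change was 3.61 ± 0.43. The saline values rest on few reads, 97 counts over the 8 libraries and only 5 in saline male replicate 2.

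Efcab1, the calaxin gene, had the smallest fold change of the 3 and the smallest SD within each exposure on the log2 scale. It had 5.63, 5.61, 6.85, 6.49, 2.90 and 4.81 CPM in fentanyl males and 5.18 and 2.84 CPM in fentanyl females, against 1.30, 1.22, 0.881, 1.25, 1.63 and 2.19 CPM in saline males and 1.75 and 1.76 CPM in saline females. The groups did not overlap, but the gap was narrow, since fentanyl female replicate 2 was 1.30-fold above saline male replicate 6. The means were 5.04 ± 1.49 CPM in fentanyl and 1.5 ± 0.411 CPM in saline libraries (SD, n = 8 each). On the log2 scale the fold change was 1.75 ± 0.22.

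Thus 3 of 3 genes had no overlap with the fentanyl libraries higher. Over all genes tested, 11 of 17856 had this pattern, or 0.0616%. By edgeR at an adjusted p under 0.05, 0.0504% of all genes were higher after fentanyl and 0.028% lower, and 7.27% had an unadjusted p under 0.05. The genes were chosen by this contrast, so nothing is read from their share. Within the exposures the libraries differed as well. The highest fentanyl library was 3.28-fold above the lowest for Spag6l, 6.07-fold for LOC100912028 and 2.41-fold for Efcab1, and the same ratios among saline libraries were 4.81, 5.50 and 2.48. The SD of log2 CPM in fentanyl and in saline libraries was 0.62 and 0.65 for Spag6l, 0.92 and 0.61 for LOC100912028, and 0.47 and 0.38 for Efcab1.

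**Figure D1:**
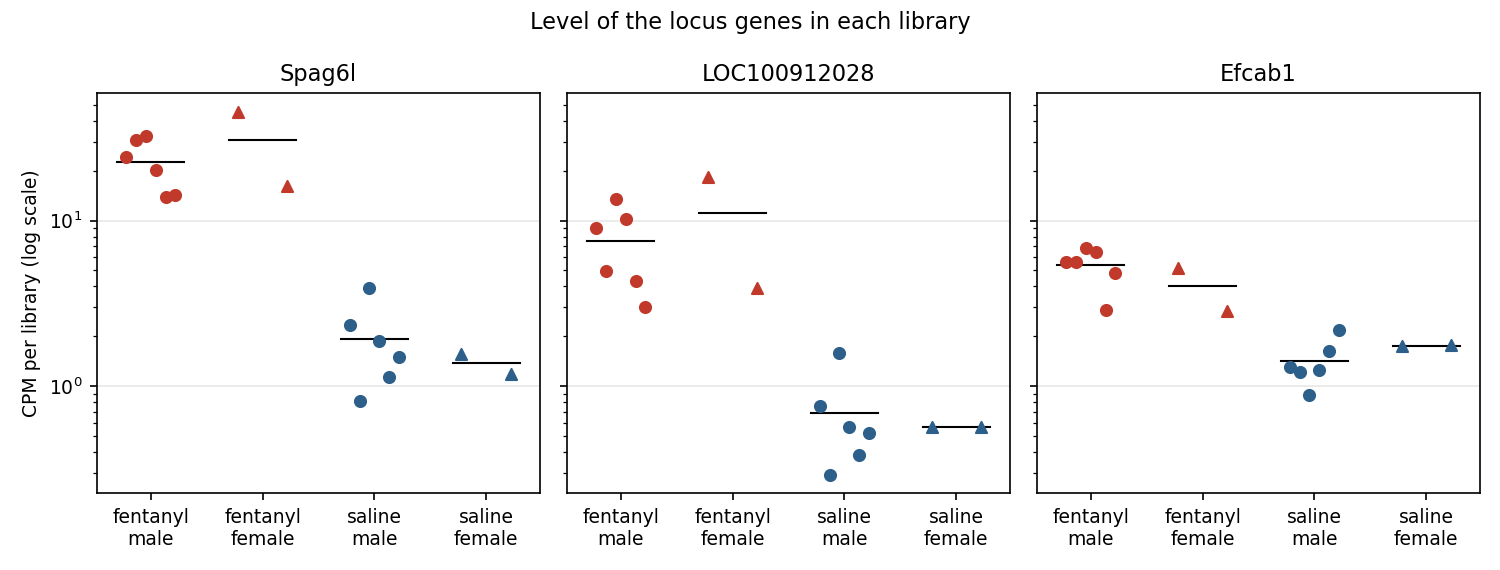
CPM of Spag6l, LOC100912028 and Efcab1 in each library on a log axis, fentanyl in red and saline in blue, males as circles and females as triangles, with a bar at each group mean. Every fentanyl library lies above every saline library in each panel, with a narrow gap for Efcab1 (1.30-fold).

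The difference had the same direction in both sexes. Within males the log2 fold change was 3.52 ± 0.37 for Spag6l, 3.40 ± 0.50 for LOC100912028 and 1.93 ± 0.25 for Efcab1 (SE), where edgeR called 0.0392% of all genes, all higher after fentanyl. In males there were 28 higher and 15 lower calls by DESeq2, and 50 higher and 34 lower calls by limma voom. Within females, 2 against 2 with a spread shared with the males, it was 4.48 ± 0.68, 4.28 ± 0.90 and 1.19 ± 0.42. In females edgeR called 0% of all genes, with 2555 at an unadjusted p under 0.05, and 5 higher without saline male replicate 5. DESeq2 called 10 higher and 10 lower in females, and limma voom 0. The female values leaned on fentanyl female replicate 1, and without that library they were 3.55 for Spag6l, 2.78 for LOC100912028 and 0.70 for Efcab1.

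The difference of the exposure effect between the sexes is a comparison that did not choose the genes, and it was tested with edgeR (quasi-likelihood, Benjamini-Hochberg adjustment over all genes). The female minus the male log2 fold change was 0.95 ± 0.74 for Spag6l (adjusted p = 0.646), 0.89 ± 1.03 for LOC100912028 (adjusted p = 0.767) and -0.74 ± 0.49 for Efcab1 (adjusted p = 0.6). None of the 3 passed. The difference for Spag6l was 0.02 and that for LOC100912028 was -0.62 without fentanyl female replicate 1. Of all genes tested 0% passed by edgeR, with 1470 genes at an unadjusted p under 0.05, 3 higher and 1 lower by DESeq2 and 0 by limma voom. Missing the threshold does not show that the exposure effect was alike in both sexes.

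Averaged over the exposures, females and males did not differ past the threshold in the 3 genes. The log2 fold change of females over males was 0.12 ± 0.36 for Spag6l, 0.29 ± 0.46 for LOC100912028 and -0.08 ± 0.26 for Efcab1, each with an adjusted p of 1 from edgeR. In this comparison 0.056% of all genes were called, 0.0168% higher and 0.0392% lower in females. Without fentanyl female replicate 1 the values for Spag6l and LOC100912028 were -0.49 and -0.63, still without a call, and that of Efcab1 was 0.16 without fentanyl female replicate 2. By limma voom with sample quality weights the values were 0.88 ± 0.28 for Spag6l (adjusted p = 0.168) and 1.05 ± 0.42 for LOC100912028 (adjusted p = 0.262), also without a call.

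The saline males fall into 2 sets of library numbers in the labels, 1 and 2 (replicates 1 and 2) and 9 to 12 (replicates 3 to 6), and 17.9% of all genes tested differed between these sets (8.27% higher and 9.66% lower in numbers 1 and 2). Spag6l, LOC100912028 and Efcab1 were not among them. Saline males 1 and 2 averaged 1.57 ± 1.08 CPM of Spag6l (SD, n = 2) and saline males 9 to 12 averaged 2.10 ± 1.23 CPM (SD, n = 4), a log2 fold change of -0.49 ± 0.63 (edgeR, adjusted p = 0.647). For LOC100912028 the means were 0.522 CPM in numbers 1 and 2 and 0.764 CPM in numbers 9 to 12 (log2 fold change -0.64 ± 0.95, adjusted p = 0.693), and for Efcab1 they were 1.26 CPM and 1.49 CPM in the same order (-0.23 ± 0.41, adjusted p = 0.755). Each of these signs turned when 1 library was left out, to 0.11 for Spag6l without saline male replicate 2, 0.06 for LOC100912028 without replicate 3 and 0.03 for Efcab1 without replicate 6. The saline females carry numbers 10 and 11 and every fentanyl library a number from 1 to 6, so library number and exposure overlap only in numbers 1 and 2. Leaving out either set of saline males, with the saline females kept, did not turn the exposure fold changes. Without saline males 1 and 2 the log2 fold change of Spag6l was 3.68, and without saline males 9 to 12 it was 4.13.

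Spag6l and LOC100912028 were positively correlated over the libraries of each exposure, past the adjusted threshold in saline libraries, and Efcab1 did not follow them in both. Over the 8 fentanyl libraries, log2 CPM of Spag6l and of LOC100912028 had a Pearson r of 0.81 and a Spearman rho of 0.83 (exact permutation p = 0.0197 and 0.0154, two-sided). Neither passed after adjustment over 18 relations (exact permutation test, adjusted p = 0.177 and 0.138). Without fentanyl male replicate 5 and fentanyl female replicate 1, the 2 libraries farthest from the median, this r was 0.67 (exact permutation p = 0.154, n = 6). Without fentanyl male replicate 2 it was 0.94, with an adjusted p of 0.0214 by the exact permutation test. Over the 8 saline libraries r was 0.96 (exact permutation p = 0.000446, adjusted p = 0.00804) and rho was 0.83 (exact permutation p = 0.0154, adjusted p = 0.138). Without saline male replicates 2 and 3, the 2 farthest, r was 0.82 (exact permutation p = 0.0583, n = 6). The adjusted p of the saline r was above the threshold when saline male replicate 1, 2 or 3 was left out (0.0643, 0.0643 and 0.136).

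Spag6l and Efcab1 had r = 0.61 and rho = 0.60 over the 8 fentanyl libraries (exact permutation p = 0.116 and 0.132). Over the 8 saline libraries they had r = -0.54 and rho = -0.31 (exact permutation p = 0.162 and 0.462). LOC100912028 and Efcab1 had r = 0.62 and rho = 0.69 in fentanyl and r = -0.54 and rho = -0.14 in saline libraries (exact permutation p = 0.115, 0.0694, 0.164 and 0.752). None of these passed (adjusted p = 0.416 or more by the exact permutation test for both r and rho), and the difference in sign between the exposures was not tested. Saline male replicate 3, the highest saline library for Spag6l and LOC100912028, was the lowest for Efcab1. Without it, r of Efcab1 in saline libraries was -0.04 with Spag6l and 0.13 with LOC100912028. Without the 2 farthest libraries, r of Spag6l with Efcab1 was 0.64 in fentanyl and -0.61 in saline libraries, and r of LOC100912028 with Efcab1 was 0.86 and -0.41.

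**Figure D2:**
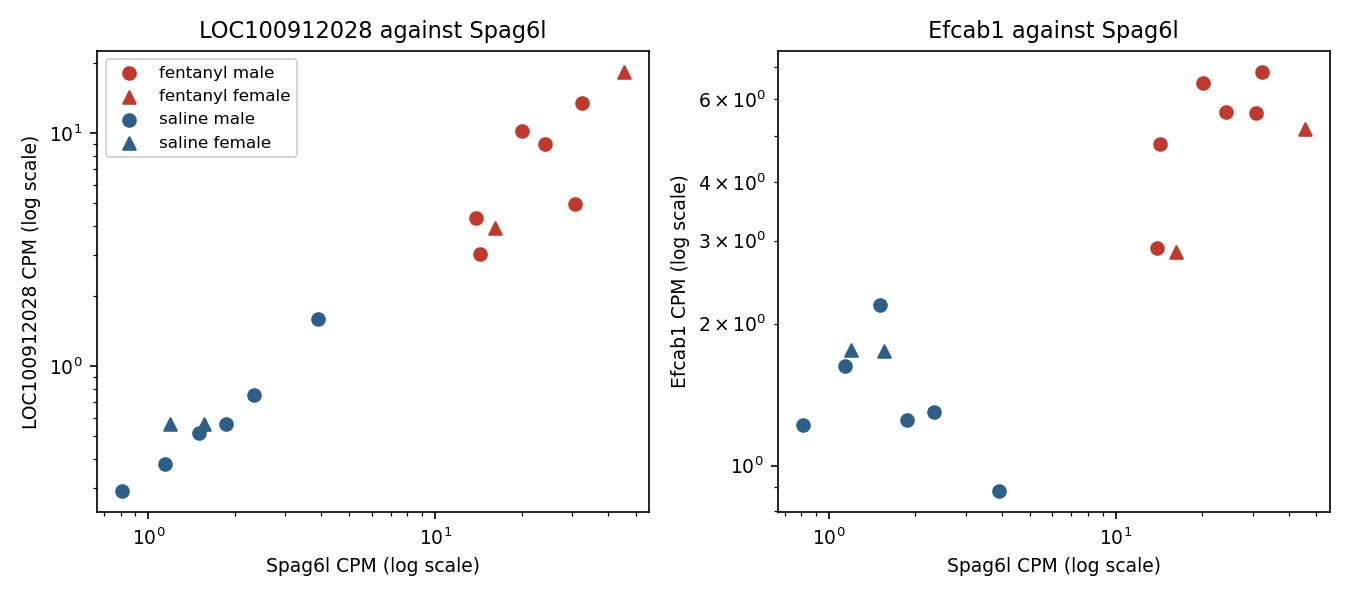
CPM of LOC100912028 (left) and Efcab1 (right) against CPM of Spag6l, both axes on a log scale, 1 point per library. Within each exposure r of LOC100912028 with Spag6l is positive, 0.81 in fentanyl, which did not pass after adjustment, and 0.96 in saline. For Efcab1 the saline libraries have r = -0.54, which did not pass the test and was -0.04 without saline male replicate 3.

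The proportion between Spag6l and LOC100912028 was close in both exposures although mean levels were 13.8-fold higher in fentanyl than in saline libraries for Spag6l and 12.9-fold for LOC100912028. LOC100912028 took 24.2 ± 6.77% of the summed counts of the pair in fentanyl libraries and 26.5 ± 2.85% in saline libraries (SD, n = 8 each). Among saline libraries the share ran from 23.1% to 32.1%, on 19 to 131 counts per library. Among fentanyl libraries it ran from 13.9% in fentanyl male replicate 2 (95% Wilson interval 11.1 to 17.2%, 497 counts) to 33.7% in fentanyl male replicate 4 (29.9 to 37.7%, 561 counts), and these intervals do not overlap. Fentanyl male replicate 6 (17.4%) and fentanyl female replicate 2 (19.5%) were low as well. Fentanyl male replicate 2 also had the highest share of mitochondrially encoded counts of all libraries, 17.7%, and the part of this in its proportion was not tested. The intervals cover counting error only, since reads without molecular identifiers are not independent molecules.

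**Figure D3:**
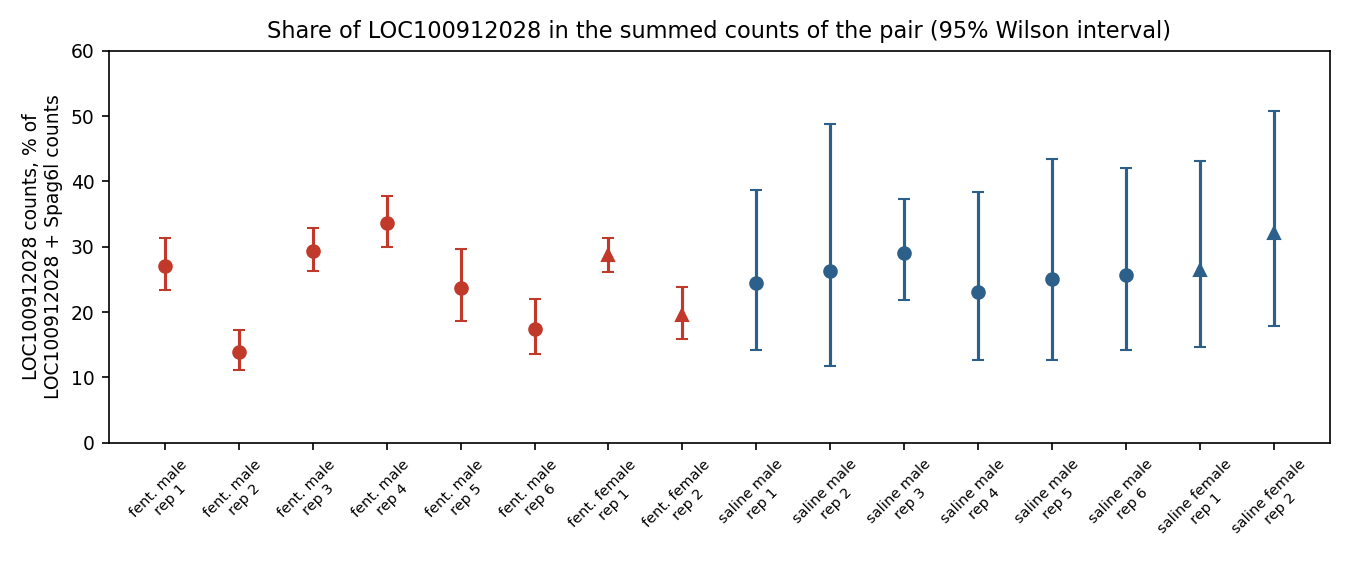
Counts of LOC100912028 as a percentage of the counts of LOC100912028 and Spag6l together, per library, with 95% Wilson intervals, fentanyl in red and saline in blue. Saline libraries lie between 23.1% and 32.1% with wide intervals, and fentanyl libraries spread from 13.9% to 33.7% with narrow ones.

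No gene around them was called by edgeR. Of 34 other entries, namely all those between Spag6l and Efcab1, the 10 before Spag6l and the last on the chromosome, 24 had a row in the count table and 15 were tested. The smallest adjusted p was 0.656, while 0.0784% of all genes were called. At an unadjusted p under 0.05 there were 2 of the 15. DESeq2 called 0, where it called 0.488% of all genes, and limma voom with sample quality weights called 4, where it called 5.63% of all genes. Among the 4 were Mzt2b (log2 fold change -0.21 ± 0.05), Ppil2 (-0.17 ± 0.05) and Top3b (-0.29 ± 0.08). Without saline males 1 and 2, edgeR called 1 neighbour, where it called 752 of all genes higher and 474 lower. With all libraries, the 15 log2 fold changes by edgeR ran from -0.23 to 0.21, with a median of -0.04, beside -0.01 over all genes.

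Before Spag6l, the nearest tested gene was Top3b, a DNA and RNA topoisomerase, with means of 35.4 ± 6.26 CPM after fentanyl and 41.4 ± 4.29 CPM after saline (log2 fold change -0.23 ± 0.10, adjusted p = 0.656 by edgeR). Ppil2, a cyclophilin-like protein (-0.13 ± 0.06, adjusted p = 0.685), and Mcm4, a subunit of the replicative helicase (-0.20 ± 0.11, adjusted p = 0.735), had the next smallest p among the neighbours. Ppil2 lies before Spag6l and Mcm4 near Efcab1. Right after LOC100912028 lies Fgd4, an exchange factor for the GTPase CDC42, with 49.6 ± 7.48 CPM in fentanyl and 49.7 ± 9.71 CPM in saline libraries (log2 fold change 0.00 ± 0.12, adjusted p = 0.999). The nearest tested gene before Efcab1 was Ube2v2, a ubiquitin-conjugating enzyme variant, with means of 61.5 ± 4.95 CPM after fentanyl and 61.9 ± 4.74 CPM after saline (-0.01 ± 0.06, adjusted p = 0.970). The 10 tested genes between LOC100912028 and Efcab1 lay between -0.20 and 0.05 on the log2 scale and none was called. Snai2, the gene beyond Efcab1, had 20 counts over the fentanyl libraries and 22 over the saline libraries and was not tested.

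One untested entry had unequal counts, and it was picked out after its values were seen. LOC102546862, annotated as protein coding and placed between Spag6l and LOC100912028, had 23 counts spread over 7 of 8 fentanyl libraries and 1 count in 1 of 8 saline libraries. The ratio of the rates was 24.6 (95% interval 3.99 to 1010 from counting error alone). The entry was picked by these counts, so the interval is a description and not a test of exposure. Its counts were too low for the filter, with a mean of 0.182 CPM in fentanyl libraries. No source used here gives the strand setting of the counting, and antisense or overlapping transcripts in this interval cannot be told apart.

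**Figure D4:**
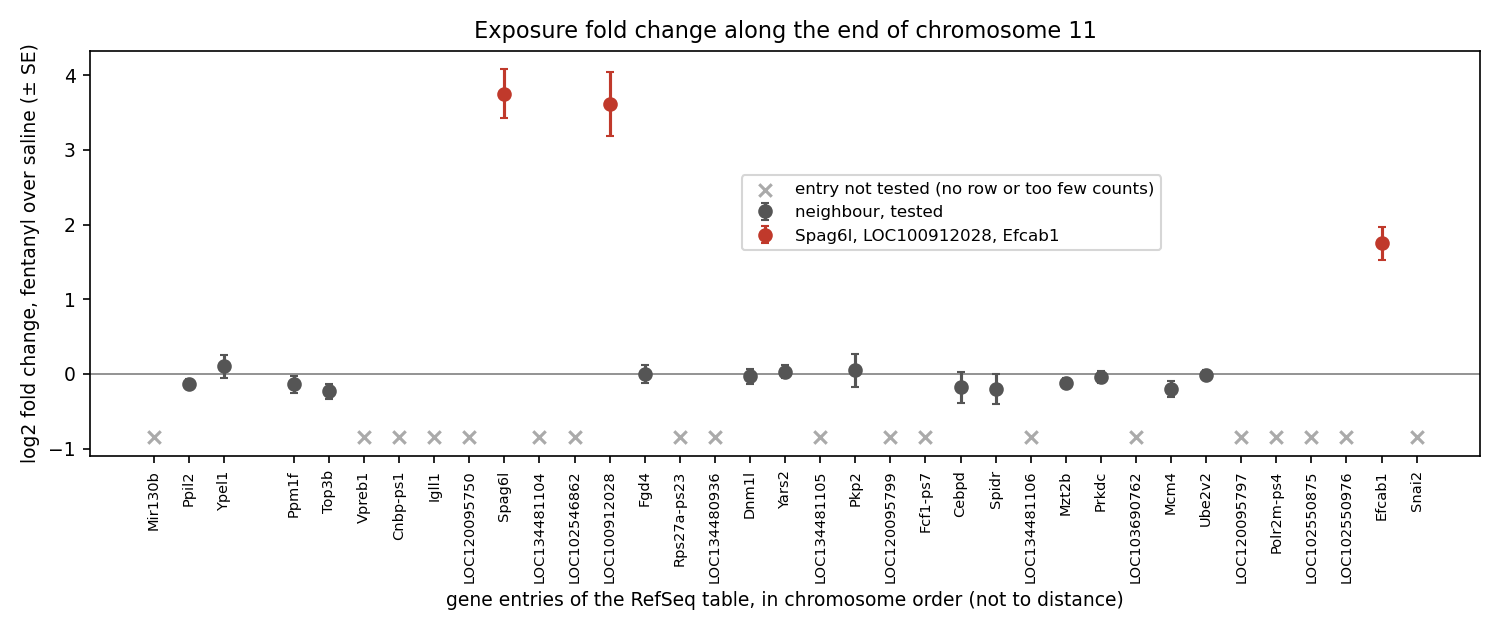
Log2 fold change of fentanyl over saline with its SE for each gene entry at the end of chromosome 11, in order of position and not to distance, with grey crosses for entries that were not tested. Spag6l (3.75), LOC100912028 (3.61) and Efcab1 (1.75) stand apart from the tested neighbours, of which the lowest is Top3b (-0.23) and from which 1 is left out of the plot.

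The family member Spag6 was low, with 43 counts in fentanyl and 58 counts in saline libraries. Its level was 0.320 ± 0.166 CPM in fentanyl and 0.417 ± 0.240 CPM in saline libraries (SD, n = 8 each). The log2 fold change was -0.37 ± 0.37, with an adjusted p of 0.839 from edgeR. The difference did not pass, and the sign was opposite to that of Spag6l.

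No other gene of the ciliary central apparatus was called by edgeR, which called 0.0784% of all genes. Of 33 entries, 29 had a row and 24 were tested, 2 had an unadjusted p under 0.05 (7.27% of all genes did), and 13 had a fold change above 0 and 11 below. Their median log2 fold change was 0.02, beside -0.01 over all genes tested. Among the genes with the smallest p was Cfap70, a cilia and flagella associated protein (0.24 ± 0.11, adjusted p = 0.664). Hydin, a large protein of a central pair projection, had 17.4 ± 6.67 CPM in fentanyl and 14.8 ± 7.33 CPM in saline libraries. DESeq2 called 0 of the list (0.488% of all genes) and limma voom called 3 of the 24 (5.63% of all genes), among them Cfap70 (0.35 ± 0.08) and Hydin (0.79 ± 0.21, against 0.20 ± 0.29 by edgeR). Without saline males 1 and 2, edgeR called 1 gene of the list, where it called 752 of all genes higher and 474 lower.

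In the list for the outer dynein arm and its docking, to which Efcab1 is tied, no gene was called by edgeR either. The share called over all genes was 0.0784%. This list also held factors for dynein arm assembly. The list's 34 entries name 30 distinct genes, some by an older symbol as well, all with a row, and 24 were tested. Of these, 5 had an unadjusted p under 0.05, where 7.27% of all genes did. DESeq2 called 0 (0.488% of all genes) and limma voom called 1 (5.63% of all genes), Dnaaf3 (0.58 ± 0.15). The fold changes ran from -0.64 to 0.47 with a median of 0.01, and 13 were above and 11 below 0. Dnah5, a heavy chain of the outer arm, had 2.52 ± 0.841 CPM in fentanyl and 3.90 ± 0.732 CPM in saline libraries (log2 fold change -0.64 ± 0.21, adjusted p = 0.480), opposite in sign to Efcab1. Dnaaf2, a factor for dynein arm assembly, had the next smallest p (-0.19 ± 0.08, adjusted p = 0.654).

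Listed transcription factors of ciliated cells were not called by edgeR or DESeq2, which called 0.0784% and 0.488% of all genes. Of the 12, 9 were tested, with 0 at an unadjusted p under 0.05 (7.27% of all genes) and a median log2 fold change of -0.02. Limma voom called 2 of the 9, where it called 5.63% of all genes. Foxj1, the master factor of motile cilia, had 3.07 ± 0.680 CPM in fentanyl and 3.68 ± 0.457 CPM in saline libraries (log2 fold change -0.28 ± 0.14, adjusted p = 0.725). Gmnc, a regulator of multiciliated cell fate, had the second smallest p of the list at -0.75 ± 0.44 (adjusted p = 0.759). The 2 that limma voom called were Foxj1 (-0.39 ± 0.11) and Rfx3, an RFX factor (0.46 ± 0.12), in opposite directions.

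**Figure D5:**
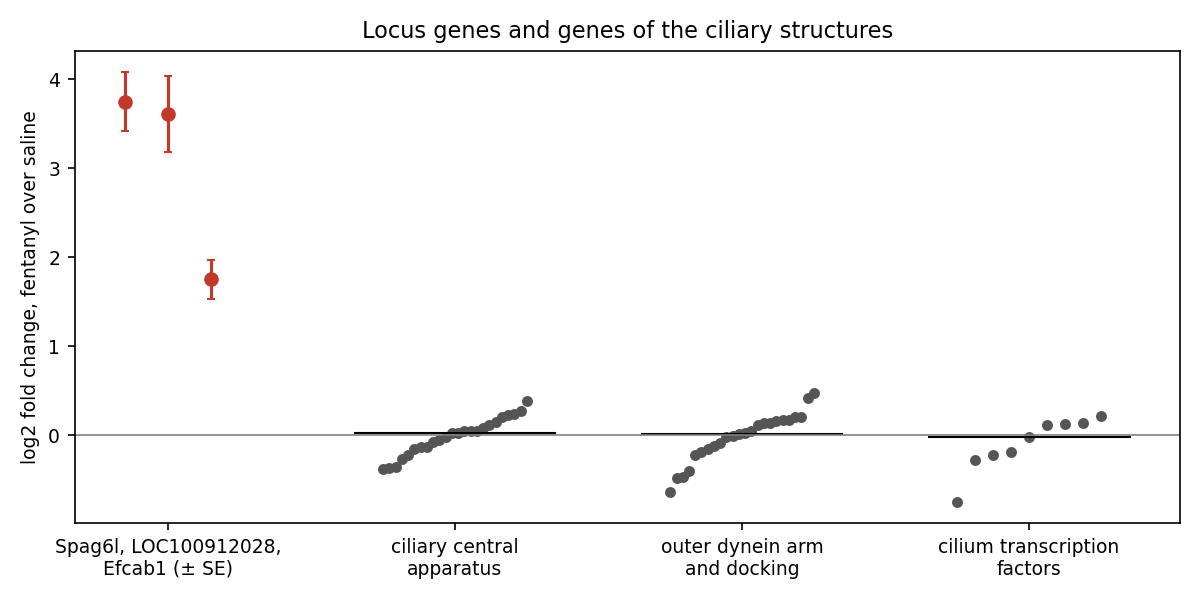
Log2 fold change of fentanyl over saline for Spag6l, LOC100912028 and Efcab1 with SE (red, left to right) and for the tested genes of 3 lists of ciliary genes (grey, sorted, bar at the median). The lists lie between -0.75 and 0.47 around medians of 0.02, 0.01 and -0.02, and the locus genes at 3.75, 3.61 and 1.75.

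Markers of the cells that carry motile cilia were present at a low level in both exposures. The summed level of 14 ependymal markers was 38.7 to 56.9 CPM in fentanyl and 34.1 to 55.7 CPM in saline libraries. Hydin had the highest mean of them, 17.4 CPM in fentanyl and 14.8 CPM in saline libraries. By edgeR 10 were tested and none was called, where 0.0784% of all genes were. At an unadjusted p under 0.05 there were 0, against 7.27% of all genes. Tmem212 was at 0 in every library. Limma voom, which called 5.63% of all genes, called Foxj1 (log2 fold change -0.39 ± 0.11) and Hydin (0.79 ± 0.21), both on this list as well. The 9 choroid plexus markers summed to 2.67 to 9.28 CPM in fentanyl and 4 to 7.89 CPM in saline libraries, and Ttr, the defining transcript, averaged 0.0210 CPM in fentanyl and 0.00724 CPM in saline libraries. Of the 12 relations of the 3 genes with these 2 list means within an exposure, none passed. The smallest adjusted p was that of Efcab1 with the ependymal mean in saline libraries (r = -0.75, exact permutation p = 0.0308, adjusted p = 0.185, n = 8; rho = -0.64, exact permutation p = 0.0962, adjusted p = 0.433), and r was -0.29 without the 2 farthest libraries. Without saline male replicate 4 it was -0.97, with an adjusted p of 0.00357 by the exact permutation test. In fentanyl libraries the ependymal mean had r = 0.31 with Spag6l, 0.09 with LOC100912028 and 0.20 with Efcab1, and these were -0.64, -0.93 and -0.63 without the 2 farthest libraries. Of 6 astrocyte markers none was called by edgeR (0.0784% of all genes were), with log2 fold changes from -0.18 to -0.03.

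Across all 16 libraries, Spag6l had r = 0.98 of log2 CPM with LOC100912028 and 0.87 with Efcab1, and LOC100912028 had 0.86 with Efcab1. With the 3 genes left aside, those with a level most like that of Spag6l were Ift140, which takes part in transport along the cilium (Pearson r = 0.87), Arl8b, a lysosomal GTPase (0.83), Calr3, a calreticulin family chaperone (0.83), Sdr42e1, a short-chain dehydrogenase (0.79), and Naa30, an N-terminal acetyltransferase (0.79), among 15498 genes that averaged 1 CPM or more. Ift140 (0.87), Kirrel2, an adhesion protein of the nephrin family (0.79), and Calr3 (0.78), with 2 genes of provisional symbol, were most like Efcab1 when Spag6l and LOC100912028 are left aside. These values include the difference between the exposures. With the mean of each exposure subtracted, LOC100912028 was the gene most like Spag6l (r = 0.85), above every other gene of the 15498. The next were Tp53i11 (0.80), Wnt9b, a Wnt ligand (0.79), Btf3l4 (0.76) and 2 genes of provisional symbol. Efcab1 then had r = 0.08 with Spag6l and stood at rank 5221. Its own nearest were Chaf1b, a chromatin assembly factor subunit (0.89), Plek, pleckstrin (0.87), Nuak2, a kinase related to AMPK (0.83), Kif6, a kinesin (0.83), and 1 gene of provisional symbol. The points share libraries and depth, and these coefficients are descriptions without a test.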

How the data were processed

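Poly(A) RNA of tissue labelled central amygdala was sequenced in 16 libraries. The labels' protocols name Trizol for extraction and NEBNext kits for the libraries. The tools named in the submitters' processing notes are Trimmomatic, STAR, HTSeq and DESeq2, with build rn7; their versions, the annotation and the strand setting were not given in the sources used here. The values deposited by the authors are raw read counts per gene symbol, not normalized, 1 column per library, and columns were matched to samples by library name. No 2 libraries were alike within sampling noise (120 pairs, chi-square per gene of 3.19 or more), and each was treated as a separate sample.

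The analysis used edgeR 4.0.16 in R 4.3.3: filterByExpr over the 4 groups, TMM factors, glmQLFit with robust estimation and glmQLFTest. The exposure and sex comparisons came from 1 additive model of both. The comparisons within a sex and between the sexes came from a fit of 4 groups, and that of the library numbers from a fit of 5. P-values were adjusted by Benjamini-Hochberg over all genes tested, with a threshold of 0.05. SE was obtained from the log2 fold change and the F statistic. Log2 CPM for correlations used a prior count of 2, and permutation of the 8 values was exact (smallest p 4.96e-05). The steps were tested on simulated data.

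The 3 genes and the gene lists were chosen with earlier results of these data known. Named were the 3 genes, Spag6, the nearest tested neighbours, any called neighbour or list gene, the neighbours and list genes with the smallest p, and the 5 genes most like Spag6l or Efcab1. Hydin, LOC102546862 and the genes that only another tool called were added after their values were seen, and 2 genes that the rule names are not reported here. Of 33294 rows, 26967 matched a symbol of the RefSeq gene table, which gave order only. DESeq2 1.42.0, limma voom (limma 3.58.1), RLE factors, no filter, a replicate block, no sex term, other windows and left-out libraries were alternatives.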

Additional observations from a re-analysis of the deposited data

Results flagged for a closer look

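LOC100912028 in saline male replicate 3, at 1.59 CPM, stood apart from the other 5 saline males and from the other 7 saline libraries, the next of which had 0.755 CPM. The gap took 0.642 of the range, above Dixon's critical value of 0.625 for 6 and 0.526 for 8 libraries. Of 16 groups of values examined, these 2 were past the value, both through this library. Chance alone does so in about 1 group in 20 where values are normally distributed. The ratio was taken on CPM and not on log2 CPM, on which a gap at the high end is smaller. That library had the largest total count, 22426428, and the highest Spag6l of the saline libraries (3.90 CPM). It rests on 38 counts of LOC100912028.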

How the results depend on the processing

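The exposure fold changes of Spag6l, LOC100912028 and Efcab1 kept their direction in each of 25 alternatives per gene. With each library left out in turn they lay between 3.53 and 4.05, 3.30 and 4.02, and 1.65 and 1.86 on the log2 scale over both sexes, and between 3.55 and 5.04, 2.78 and 5.01, and 0.70 and 1.56 in females, where a lone library of a group is assumed to vary like the other groups. Without both fentanyl female replicate 1 and saline male replicate 3, chosen after seeing the data, they were 3.83, 3.67 and 1.62. The r of Spag6l with LOC100912028 ranged from 0.70 to 0.94 in fentanyl and from 0.91 to 0.98 in saline libraries with 1 left out, and that of the ependymal mean with Efcab1 in saline libraries from -0.97 to -0.53. Fewer libraries raise the smallest p that can be reached.

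Limma voom called 4 neighbours, 3 central apparatus genes, 1 gene of the outer dynein arm list (an assembly factor) and 2 transcription factors. Without saline males 1 and 2 there was 1 neighbour and 1 central apparatus gene. In both settings far more genes were called overall: 663 higher and 343 lower, and 752 and 474, against 9 and 5. DESeq2 called 52 and 35, and leaving out single libraries gave 8 to 21 and 1 to 8. Without saline males 9 to 12 there were 1 and 3. Between the saline number sets 1477 genes were higher and 1724 lower, against 2817 and 2884 by limma voom and 128 and 65 without saline male replicate 2. The cause of these changes was not tested. With the replicate number as a block, 2 genes were higher and 0 lower, and the fold changes were 3.77 ± 0.25 for Spag6l, 3.58 ± 0.26 for LOC100912028 and 1.72 ± 0.26 for Efcab1. Whether equal replicate numbers stand for paired libraries was not tested. The deviations from group means of libraries with the same replicate number correlated at -0.11 to 0.26 in males. In females both values were -0.21, since 2 libraries per group force them to be equal. Low saline counts limit the precision of LOC100912028.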
